A study of Homo sapiens with 8 samples.

Results

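The genes described here are 44 genes of the transforming growth factor beta (TGF-beta) and bone morphogenetic protein (BMP) pathways, picked by symbol from the 27945 genes of a count table of nascent RNA. They are 9 ligands, 10 receptors, 5 secreted antagonists, 8 SMADs, 7 inhibitors that act inside or on the surface of the responding cell, and 5 target genes. The cells were IMR90, a strain of primary human lung fibroblasts, carrying ER:RAS, a fusion of the estrogen receptor with H-RASG12V that drives senescence once 4-hydroxytamoxifen (4-OHT) switches it on. There were 4 groups of 2 fastGRO-seq libraries each. Control cells were labeled WT with no shRNA named, and the other 3 groups were senescent cells (100 nM 4-OHT, day 6) expressing shControl, shMETTL3 or shMETTL14. The methods list 1 shRNA for METTL3 and 1 for METTL14, so an effect of the target and an effect of that hairpin cannot be told apart. Because no shRNA is given for the control cells, senescence and shRNA delivery go together in every comparison with them. The labels number the libraries of a group 1 and 2, and the study describes its fastGRO-seq experiments as biologically independent. The p-values rest on a spread between libraries that is estimated over all 4 groups together, not on that of the groups compared alone.

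TGF-beta family ligands are secreted dimers that bring together type I and type II receptor kinases. The activated receptors phosphorylate SMAD proteins, SMAD2 and SMAD3 for TGF-beta and activin and SMAD1, SMAD5 and SMAD9 for BMPs, which then enter the nucleus with SMAD4. Follistatins and GREM1 bind the ligands outside the cell, and SMAD6, SMAD7, SKI, SKIL, the SMURF ubiquitin ligases and PMEPA1 dampen the signal within it. In fibroblasts the pathway is known for extracellular matrix production, and TGF-beta ligands and activin A belong to what senescent cells secrete. METTL3 and METTL14 together form the RNA methyltransferase that deposits N6-methyladenosine.

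The sequences before 3 of the genes are shown because these genes carry the main contrasts: INHBA and BMP6 rose most steeply with BMP2 in senescence and fell after each knockdown, while FSTL3 moved in opposite directions in the knockdowns. Each is the 250 bases before the RefSeq start in build GRCh38.p14, written 5′ to 3′ on the strand of the gene, and capitals mark matches to the motifs named below. The table of starts held 42 of the 44 genes and lacked BMP2 and SKI.
INHBA, chr7:41703091-41703340, minus strand: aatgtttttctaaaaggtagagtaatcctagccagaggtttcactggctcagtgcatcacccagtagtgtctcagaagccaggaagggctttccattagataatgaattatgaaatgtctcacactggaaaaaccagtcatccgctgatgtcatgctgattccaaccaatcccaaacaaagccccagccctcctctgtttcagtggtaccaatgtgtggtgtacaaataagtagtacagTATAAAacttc
BMP6, chr6:7725849-7726098, plus strand: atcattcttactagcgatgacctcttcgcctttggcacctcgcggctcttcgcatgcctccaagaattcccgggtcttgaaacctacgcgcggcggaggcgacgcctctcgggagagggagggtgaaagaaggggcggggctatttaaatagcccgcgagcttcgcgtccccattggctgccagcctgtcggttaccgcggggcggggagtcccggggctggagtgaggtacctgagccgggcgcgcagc
FSTL3, chr19:676142-676391, plus strand: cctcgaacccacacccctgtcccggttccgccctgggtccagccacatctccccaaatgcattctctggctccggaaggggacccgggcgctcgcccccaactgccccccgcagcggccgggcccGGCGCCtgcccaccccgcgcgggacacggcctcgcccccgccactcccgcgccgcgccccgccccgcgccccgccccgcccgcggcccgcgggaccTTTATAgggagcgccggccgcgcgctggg
These windows differed in base composition, with a GC content of 42.8% before INHBA, 64.4% before BMP6 and 80.0% before FSTL3, where the median over all 35116 such windows was 58.0%. Motifs were searched on both strands. The TATA letters TATAAA stood 11 to 6 bases before the INHBA start and, on the opposite strand, 29 to 24 bases before the FSTL3 start, and 10.7% of all windows held them. The GC-rich SMAD letters GGCGCC stood 125 to 120 bases before FSTL3, and 16.4% of all windows and 19 of the 79 windows of the members (24.1%) held them. The windows of the members had a median GC content of 63.6%, above the 58.0% of all windows, and its part in this share was not tested. For the TATA letters the share of the members' windows was 12.7%. The AP-1 letters TGANTCA were in none of the 3 sequences, in 6.57% of all windows and in 6.33% of the members' windows. The NF-kappaB letters GGGNNTTTCC were in none of the 3, in 1.73% of all windows and in 1.27% of the members' windows. Such matches describe letters only.

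In fastGRO-seq, polymerases that are already engaged in isolated nuclei run on in the presence of a labeled nucleotide, so reads over a gene report its ongoing transcription. The values are raw counts over whole genes, introns included, in build hg19. Libraries held 14897360 to 20306299 counts, of which 86.2% to 92.5% lay in 25 ribosomal RNA rows, leaving 1513930 to 2048475 counts for other genes. Genes were compared by edgeR's quasi-likelihood test in 1 fit of the 8 libraries, and a gene was called where the p-value adjusted over all 12844 genes tested was below 0.05. A normalized count below is the raw count scaled to the mean effective library size, and folds are relative to the other genes, since no spike-in scaling was applied here. The study itself mixed Drosophila nuclei into the samples as a spike-in and normalized its aligned reads by their RNA. Beyond sampling noise, replicates varied least in shControl and control cells, with 1.56 and 1.72 times the counting variance, and most in shMETTL3 cells, with 5.26 times. The difference between the shMETTL3 libraries followed GC content (Spearman's rho 0.45 over the genes tested and 0.51 over the 40 members tested, as a description). The counts appeared not to separate the strands: where 1 gene lay inside another of opposite orientation, the enclosing gene held at least as many counts in all libraries for 313 of 315 pairs. The enclosing gene is also the longer of each pair, which was not allowed for. METTL3 counts were 77 and 47 in shControl cells and 16 and 19 in shMETTL3 cells (log2 fold change -2.04 ± 0.31 SE, adjusted p = 1.8e-05). METTL14 counts were 24 and 28 with shControl and 18 and 14 with shMETTL14, which did not pass (log2 fold change -0.86 ± 0.34 SE, adjusted p = 0.076). Senescence alone had already lowered METTL14 transcription, from 60 and 55 raw counts (-0.76 ± 0.28, adjusted p = 0.047). Such counts report transcription of the 2 genes, not the mature RNA or protein left, so how well either knockdown worked was not tested. For the proteins the study shows a western blot. All 10 lung fibroblast markers stayed above 10 normalized counts in every group, and CD3E, a T cell marker, was at 0. Of the 5 epithelial markers EPCAM had 0 to 1 and CDH1 0 to 2 counts per library, while the keratins KRT8 and KRT18 had 9 to 28 and 12 to 43. Of these markers 1 or 2 passed 10 normalized counts in a group, and their sum was 61.1 to 77.0 in shMETTL14 libraries and 21.8 to 54.4 in the others, with a part in the results that was not tested. Of the 4 endothelial markers 0 passed 10 normalized counts in any group. The summed normalized count of the fibroblast markers was 23368 to 24857 in control, 11914 to 13789 in shControl, 11898 to 14066 in shMETTL3 and 8273 to 9342 in shMETTL14 libraries, and its part in the results below was not tested. Of the 4 immune markers CD68 alone passed 10 normalized counts, and their sum was 18.3 to 20.4 in control and 32.3 to 75.7 in senescent libraries, with a part that was not tested either. In such bulk libraries, fewer transcribing cells and less transcription per cell cannot be told apart.

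Of the 44 genes, 40 had enough counts to be tested. In senescent shControl cells against control cells, 11 of the 40 were higher and 10 lower (27.5% and 25%, against 13.3% and 13.3% of all genes tested). Among the lower members were GDF5 and SMAD9, which had enough counts to be tested only through the control cells. After METTL3 knockdown in senescent cells, 7 were higher and 7 lower (17.5% each, against 12.3% and 11.2%). After METTL14 knockdown, 4 were higher and 12 lower (10% and 30%, against 9.15% and 12%). Between the knockdowns, 5 were higher and 17 lower with shMETTL14 than with shMETTL3 (12.5% and 42.5%, against 16.5% and 18.7%). The members tested had a median log2 fold change of 0.03 (senescence), -0.04 (shMETTL3), -0.33 (shMETTL14) and -0.35 (between the knockdowns), where the medians over all genes tested were -0.03, -0.03, 0.00 and 0.01. The split depended on scaling. By total count alone, which shifted the median of all genes to -0.53, 0.58 and 0.35, it was 4 higher and 17 lower in senescence, 19 and 2 after METTL3 knockdown and 11 and 9 after METTL14 knockdown. The senescence calls of TGFB1 (0.39), TGFBR2 (-0.05), GREM1 (0.23), SMAD7 (0.62), SKIL (0.30), SMURF2 (0.15) and TGFBI (0.14) were then lost. With library sizes taken without ribosomal RNA rows it was 6 and 10 after METTL14 knockdown and 6 and 12 between the knockdowns, and with an offset for GC content 6 and 11 after METTL14 knockdown. In total 32 members were called in at least 1 of the first 3 comparisons and 8 in none of them. Both knockdown comparisons use the same shControl libraries as the senescence comparison.

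**Figure D1:**
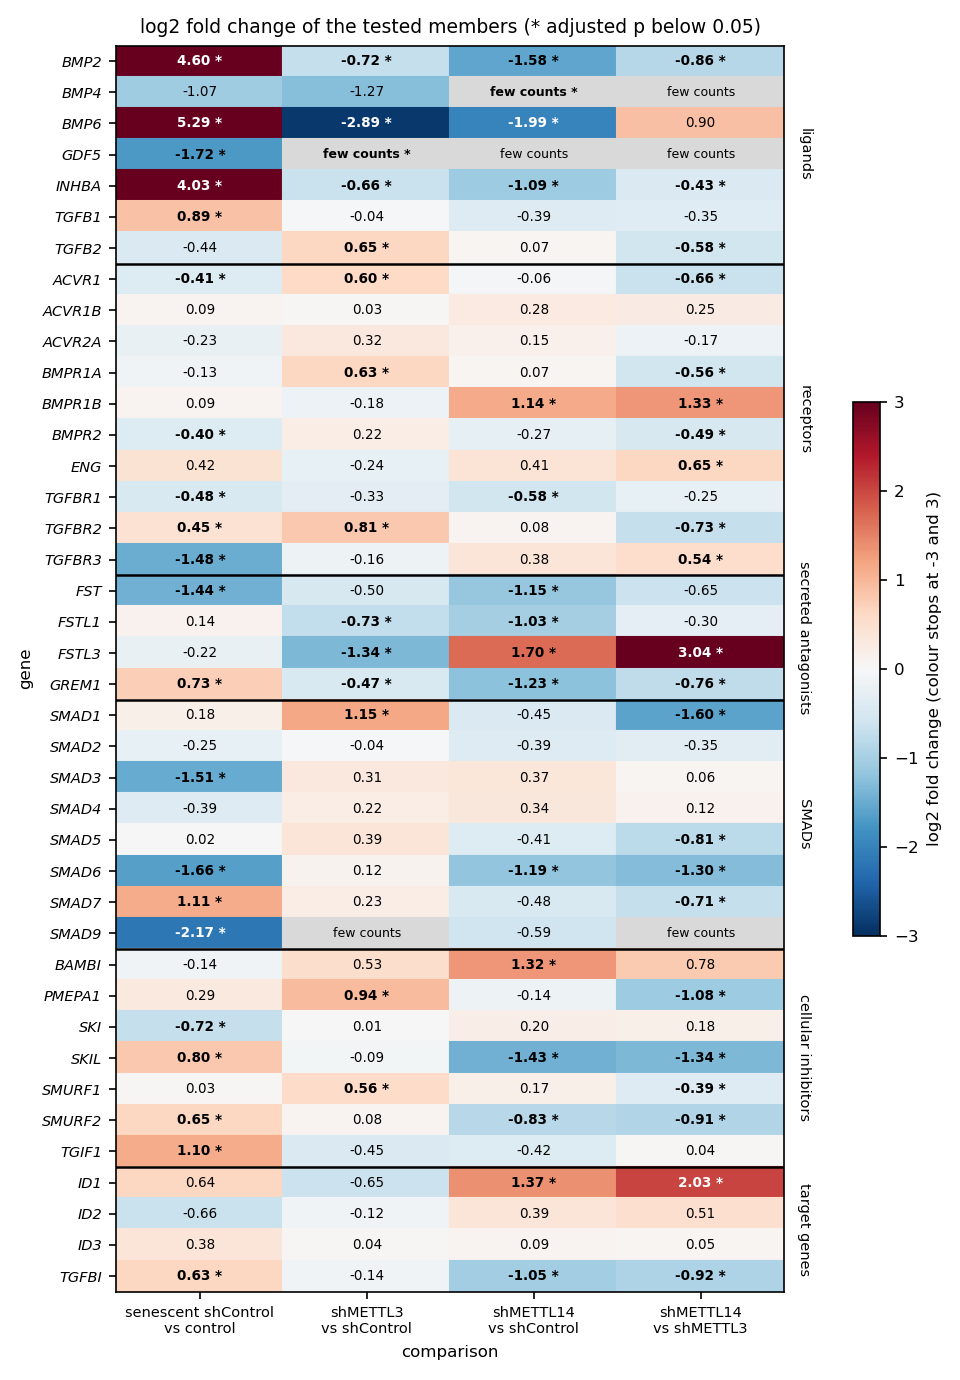
The grid gives the log2 fold change of the 40 members tested (rows, grouped by role) in 4 comparisons (columns), with an asterisk where the adjusted p was below 0.05. Grey cells mark comparisons in which a group had 3 counts or fewer in all. INHBA, BMP2 and BMP6 stand out in the first column at 4.03, 4.60 and 5.29, and FSTL3 is the only member called in opposite directions in the 2 knockdown columns.

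Among the ligands, INHBA, BMP2 and BMP6 rose in senescence more than any other member, and all fell after each knockdown without returning to the control level. By total count alone the METTL3 knockdown calls of INHBA (-0.03, adjusted p = 0.88) and BMP2 (-0.10, adjusted p = 0.68) were lost, on a scaling with a median of 0.58 over all genes. INHBA (chromosome 7, 41724712 to 41742706) encodes the beta A subunit of activin A. Normalized counts of INHBA were 116 and 109 in the control libraries, 1919.9 and 1765 in those of shControl, 1092 and 1243 in those of shMETTL3 and 879 and 851 in those of shMETTL14. No group overlapped another. The log2 fold change was 4.03 ± 0.16 (SE) in senescent cells (adjusted p = 3e-17), -0.66 ± 0.13 for METTL3 knockdown (adjusted p = 0.00054) and -1.09 ± 0.13 for METTL14 knockdown (adjusted p = 8.2e-07). INHBA-AS1, an antisense gene with 2456 counts in all libraries against 7526 for INHBA, covers 51.1% of it, and without strand separation reads of the pair cannot be told apart. Per kilobase of gene, INHBA was the most transcribed of the members in shControl cells, at 102 normalized counts per kb, and stood at 6.25 in control cells.

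BMP2 (chromosome 20, 6748745 to 6760925), a ligand of the BMP receptors, followed the same order of groups. Its raw counts were 31 and 23 in the control libraries, 518 and 489 in those of shControl, 345 and 368 in those of shMETTL3 and 190 and 188 in those of shMETTL14. Its log2 fold change was 4.60 ± 0.18 (SE) in senescent cells, -0.72 ± 0.13 with METTL3 knocked down and -1.58 ± 0.14 with METTL14 knocked down (adjusted p = 5.7e-17, 0.00023 and 4.4e-09). BMP2 thus remained 14.8-fold above control with shMETTL3 and 8.14-fold above it with shMETTL14.

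BMP6 (chromosome 6, 7726332 to 7881961), a second BMP ligand, went from 1 and 6 raw counts in control cells to 101 and 117 in shControl cells, 12 and 22 in shMETTL3 cells and 31 and 30 in shMETTL14 cells. The rise had a log2 fold change of 5.29 ± 0.40 (SE, adjusted p = 5.8e-11), or 4.55 and 6.95 when control replicate 1 or 2 was left out. In contrast to INHBA and BMP2, the fold was larger after METTL3 knockdown, at -2.89 ± 0.30, than after METTL14 knockdown, at -1.99 ± 0.28 (adjusted p = 8.4e-08 and 5.3e-06). The difference between the knockdowns did not pass the test for BMP6 (0.90 ± 0.36, adjusted p = 0.054). For INHBA and BMP2, transcription was lower with shMETTL14 than with shMETTL3 (-0.43 ± 0.13 and -0.86 ± 0.14, adjusted p = 0.013 and 3.4e-05), though for INHBA not without shMETTL3 replicate 2 (-0.32, adjusted p = 0.1).

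Of the other ligands, TGFB1, the founding TGF-beta ligand, rose in senescence from 55.8 and 57.5 to 99.3 and 110.2 normalized counts (log2 fold change 0.89 ± 0.23 SE, adjusted p = 0.0048; 0.058 without senescent shControl replicate 2) and was called after neither knockdown. TGFB2 ranged from 55.6 to 96.8 normalized counts over the libraries and was called higher after METTL3 knockdown alone (0.65 ± 0.21, adjusted p = 0.029), a call lost without either shControl library (0.65 and 0.62) or without shMETTL3 replicate 2 (0.47). BMP4, a further BMP ligand, had 23 and 35 raw counts in control cells, 8 and 13 in shControl cells, 2 and 8 in shMETTL3 cells and 0 and 3 in shMETTL14 cells. It was lower after METTL14 knockdown (adjusted p = 0.017), with a ratio of shControl to shMETTL14 of 7.83 and a 95% exact binomial interval of 2.34 to 41.0 that covers counting error only. The call was lost without senescent shControl replicate 2 (log2 fold change -2.53, adjusted p = 0.16) and without shMETTL14 replicate 1 (-1.91, adjusted p = 0.22). GDF5, a growth factor of joint development, had 16 and 19 raw counts in control cells, the only libraries where it reached 10, then 5 and 3 in shControl cells, 0 and 0 in shMETTL3 cells and 1 and 2 in shMETTL14 cells. It was lower in senescence (log2 fold change -1.72 ± 0.62, adjusted p = 0.042) and called lower after METTL3 knockdown (adjusted p = 0.02), where it was at least 1.56-fold lower against a floor of 3 counts per library. The first call was lost without any 1 of the control, shControl or shMETTL14 libraries (-2.15 to -1.35), and the second without any 1 of the shControl or shMETTL3 libraries (adjusted p = 0.054 to 0.14). TGFB3, with 0 to 5 raw counts per library, and INHBB, with 1 count in all, were not tested.

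**Figure D2:**
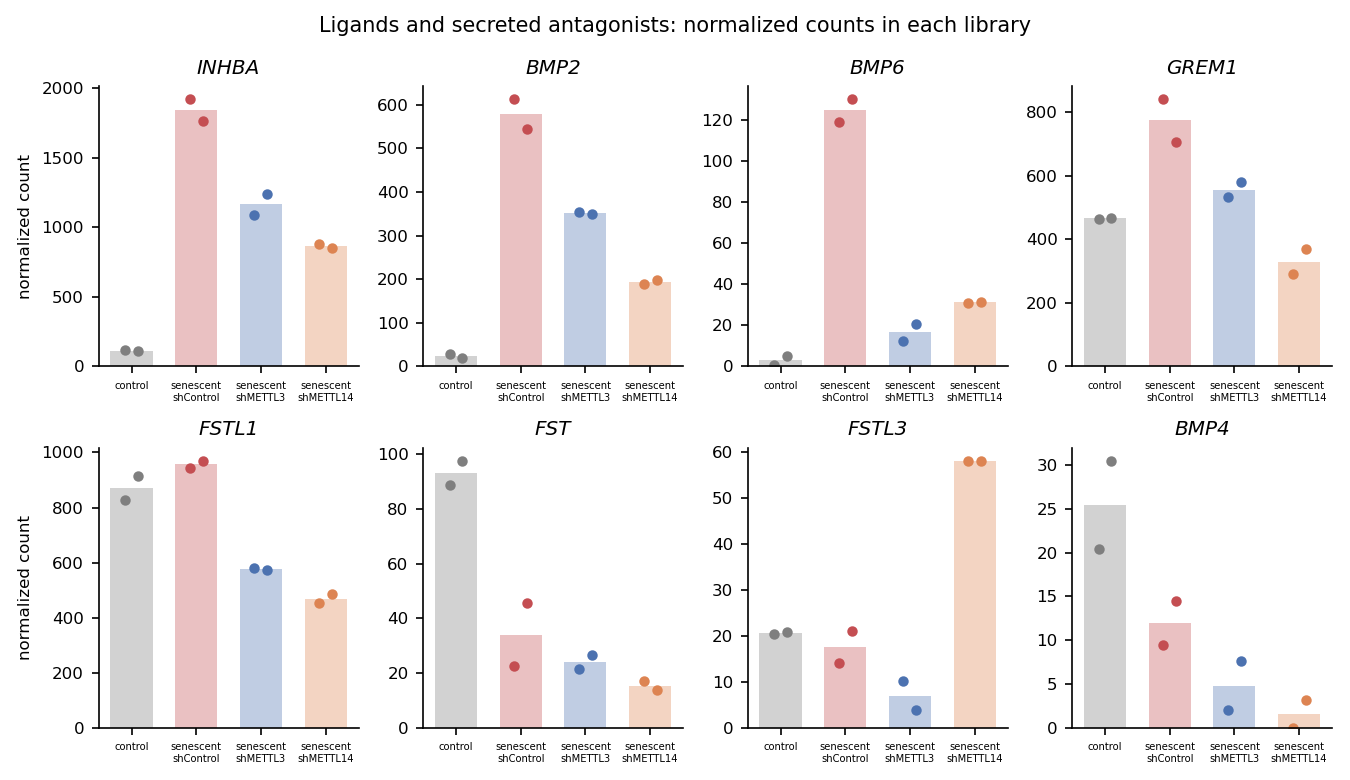
Bars give the mean normalized count of each group and points its 2 libraries, on an axis from 0 for each gene. INHBA, BMP2 and BMP6 were highest in senescent shControl cells, GREM1 and FSTL1 lay below shControl in all 4 knockdown libraries, and both FSTL3 points of shMETTL14 lay at 58.0 and 57.9, above all other libraries.

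Of the 4 secreted antagonists tested, GREM1 rose and FST fell in senescence, GREM1, FSTL1 and FSTL3 were called lower after METTL3 knockdown (11.2% of all genes), and GREM1, FSTL1 and FST after METTL14 knockdown (12%). GREM1 (chromosome 15, 33010205 to 33026870), which binds BMP2 and BMP4, had 464 and 468 normalized counts in control cells, 841 and 708 in shControl cells, 534 and 580.1 in shMETTL3 cells and 292 and 369 in shMETTL14 cells. It rose in senescence (log2 fold change 0.73 ± 0.14 SE, adjusted p = 0.00023) and fell after METTL3 knockdown (-0.47 ± 0.14, adjusted p = 0.015) and METTL14 knockdown (-1.23 ± 0.15, adjusted p = 4.6e-07). With shMETTL14 it ended below the control cells (-0.50 ± 0.15, adjusted p = 0.0073), a call lost without control replicate 2 or shMETTL14 replicate 1 (-0.32). The METTL3 call was lost without senescent shControl replicate 1 (-0.36, adjusted p = 0.21). When libraries were scaled by total count alone, a scaling that moved the median of all genes to 0.58, the log2 fold change of GREM1 after METTL3 knockdown was 0.15 and not called (adjusted p = 0.5).

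FSTL1, a follistatin-like glycoprotein, was not called in senescence, with 826 and 914 normalized counts in control cells and 943 and 969 in shControl cells. It fell to 581 and 573 with shMETTL3 (log2 fold change -0.73 ± 0.13 SE, adjusted p = 0.00017) and to 453 and 484 with shMETTL14 (-1.03 ± 0.13, adjusted p = 2e-06). By total count alone the METTL3 value of FSTL1 was -0.11 and not called (adjusted p = 0.6). FST, follistatin, which binds activin, went the other way from its ligand gene INHBA in senescence. Its normalized counts were 88.6 and 97.5 in the control libraries, 22.5 and 45.6 in those of shControl, 21.5 and 26.6 in those of shMETTL3 and 17.0 and 13.7 in those of shMETTL14. The log2 fold change in senescence was -1.44 ± 0.28 (adjusted p = 0.00023), with -2.03 when senescent shControl replicate 2 was left out and -1.02 when replicate 1 was. After METTL14 knockdown FST was called lower (-1.15 ± 0.37, adjusted p = 0.025), but without senescent shControl replicate 2 the value was -0.55 (adjusted p = 0.51), and the call was also lost without either shMETTL14 library (-1.34 and -1.01).

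FSTL3 (chromosome 19, 676389 to 683392), a follistatin-like inhibitor of activin, was the 1 member called in opposite directions after the knockdowns. It had raw counts of 23 and 24 in the control libraries, 12 and 19 in those of shControl, 10 and 4 in those of shMETTL3 and 58 and 55 in those of shMETTL14. The rise after METTL14 knockdown (log2 fold change 1.70 ± 0.35 SE, adjusted p = 7e-04) kept its call in each of 19 alternatives. The fall after METTL3 knockdown (-1.34, adjusted p = 0.047) lost its call in 13 of 19, and ranged over them from -2.20 without shMETTL3 replicate 1 to -0.74 by total count alone, with -0.80 without shMETTL3 replicate 2. Tested directly, FSTL3 was higher with shMETTL14 than with shMETTL3 by 3.04 ± 0.40 (adjusted p = 1.3e-06). CHRDL1, a BMP-binding antagonist, had 0 to 2 raw counts per library and was not tested.

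Of the 10 receptors, 1 was higher and 4 lower in senescence (13.3% and 13.3% of all genes), 3 were higher and 0 lower after METTL3 knockdown (12.3% and 11.2%), and 1 was higher and 1 lower after METTL14 knockdown (9.15% and 12%). Of the 4 lower in senescence, 3 lost their calls without any 1 control or shControl library. TGFBR3 (betaglycan, a co-receptor) fell in senescence from 179 and 206 to 68.6 and 69.0 normalized counts (log2 fold change -1.48 ± 0.18 SE, adjusted p = 3.3e-07), and had 58.5 and 64.6 with shMETTL3 and 90.0 and 89.5 with shMETTL14, called after neither knockdown. TGFBR2, the type II TGF-beta receptor, rose after METTL3 knockdown from 499 and 504 to 902 and 853 (0.81 ± 0.13, adjusted p = 6.5e-05), and had 484 and 577 with shMETTL14. Its smaller rise in senescence, 0.45 ± 0.14 (adjusted p = 0.016), lost its call without any 1 control or shControl library (adjusted p = 0.085 to 0.14) and was -0.05 and not called when libraries were scaled by total count alone (adjusted p = 0.83), where the median of all genes was -0.53. BMPR1B, a type I BMP receptor and the longest member at 400 kb, had 109.8 and 102 normalized counts in control cells, 117 and 108 in shControl cells, 86.2 and 111 in shMETTL3 cells and 267 and 229.6 in shMETTL14 cells. Only the shMETTL14 libraries stood apart (1.14 ± 0.17, adjusted p = 1.4e-05).

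Of the type I receptors ACVR1 and BMPR1A, both rose after METTL3 knockdown (log2 fold changes 0.60 ± 0.15 and 0.63 ± 0.14 SE, adjusted p = 0.0041 and 0.001) and neither was called after METTL14 knockdown. The call of ACVR1 was lost without senescent shControl replicate 2 (0.45, adjusted p = 0.14) and with an offset for gene length (0.37, adjusted p = 0.075). ACVR1, TGFBR1 and the type II receptor BMPR2 were also called lower in senescence by 0.40 to 0.48 on the log2 scale (adjusted p = 0.037 to 0.042), calls that ended when any control or shControl library was left out (values of -0.56 to -0.26). TGFBR1 was called lower after METTL14 knockdown too (-0.58 ± 0.19, adjusted p = 0.031), again lost without any 1 of the shControl or shMETTL14 libraries (-0.70 to -0.50). ACVR1B, ACVR2A and the co-receptor ENG were called in none of these comparisons, and ENG was higher with shMETTL14 than with shMETTL3 (0.65 ± 0.17, adjusted p = 0.0039), which was 0.43 and no longer called without shMETTL14 replicate 1 or shMETTL3 replicate 2. The ENG call was also lost by total count alone (0.41) and with an offset for GC content (0.28).

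Among the SMADs, SMAD3 (chromosome 15, 67358195 to 67487533), which carries TGF-beta and activin signals, fell in senescence from 2047 and 1836 to 619 and 748 normalized counts (log2 fold change -1.51 ± 0.15 SE, adjusted p = 5.3e-09). It was called after neither knockdown, with 936 and 756 counts with shMETTL3 and 876 and 891 with shMETTL14. SMAD2, which shares these signals, and SMAD4, the common partner, were called in none of the 3 comparisons. SMAD9, a BMP SMAD, had 37 and 52 raw counts in control cells, 2 and 13 in shControl cells, 3 and 0 in shMETTL3 cells and 8 and 3 in shMETTL14 cells. Its fall in senescence (-2.17 ± 0.53, adjusted p = 0.0028) lost its call without control replicate 2 (-1.92, adjusted p = 0.058) and varied with the shControl library kept, between -3.96 when replicate 2 was left out and -1.41 when replicate 1 was, where it was no longer called (adjusted p = 0.11).

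SMAD1 (chromosome 4, 146402802 to 146480325), also a BMP SMAD, changed after METTL3 knockdown. It had 87.7 and 91.4 normalized counts in control cells, 96.9 and 105.7 in shControl cells, 223 and 229 in shMETTL3 cells and 69.0 and 80.0 in shMETTL14 cells. The log2 fold change was 1.15 ± 0.17 (SE) after METTL3 knockdown (adjusted p = 1e-05) and -0.45 ± 0.19 after METTL14 knockdown, which did not pass (adjusted p = 0.097). Between the knockdowns SMAD1 differed by -1.60 ± 0.17 (adjusted p = 6.6e-08). SMAD1-AS2 lies on the opposite strand over 7.65% of SMAD1, with 58 counts in all libraries against 984. SMAD5 was called only in the direct comparison, lower with shMETTL14 (-0.81 ± 0.19, adjusted p = 0.0014), and lost this call without shMETTL3 replicate 2 (-0.49) or shMETTL14 replicate 1 (-0.61).

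The inhibitory SMADs moved in opposite directions in senescence. SMAD7, which blocks TGF-beta receptors, rose from 39.0 and 28.7 to 60.3 and 85.7 normalized counts (log2 fold change 1.11 ± 0.25 SE, adjusted p = 0.0013), and without senescent shControl replicate 2 it was 0.84 with an adjusted p of 0.066. SMAD6, which mainly restrains BMP signaling, fell from 69.1 and 72.3 to 17.7 and 26.7 (-1.66 ± 0.30, adjusted p = 0.00012). SMAD6 had 28.7 and 19.9 with shMETTL3 and 9.99 and 9.48 with shMETTL14, a further fall after METTL14 knockdown (-1.19 ± 0.42, adjusted p = 0.044) that lost its call in 10 of 19 alternatives, among them any 1 control, shControl or shMETTL14 library left out (-1.45 to -0.86). Neither was called after METTL3 knockdown.

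**Figure D3:**
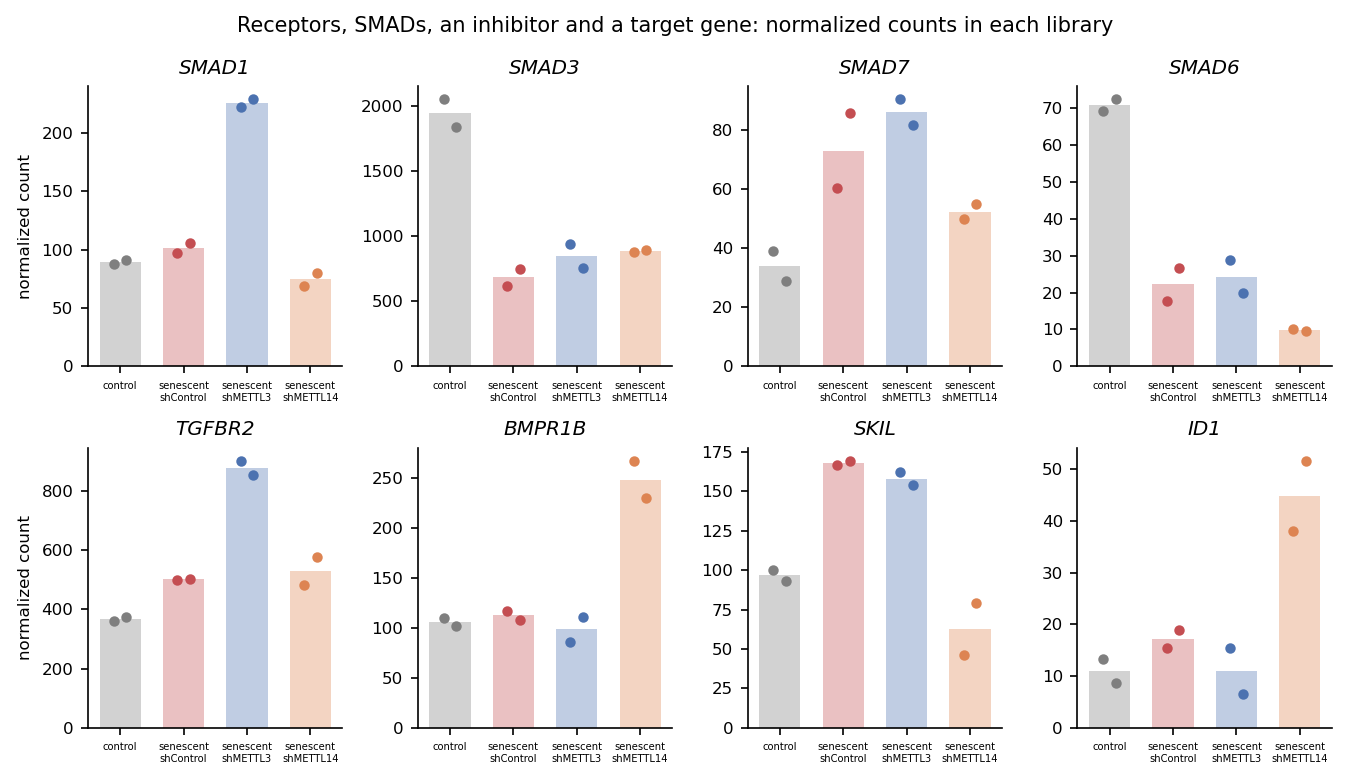
Bars give group means and points the 2 libraries, in normalized counts on axes from 0. SMAD1 and TGFBR2 were highest in both shMETTL3 libraries, BMPR1B and ID1 in both shMETTL14 libraries, and SMAD3 and SMAD6 in both control libraries.

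Of the inhibitors acting in or on the cell, TGIF1, SKIL and SMURF2 rose in senescence and SKI fell. TGIF1, a SMAD corepressor, went from 51.4 and 36.6 to 96.9 and 92.4 normalized counts (log2 fold change 1.10 ± 0.22 SE, adjusted p = 0.00037) and was called after neither knockdown. SKIL (SnoN, a corepressor) had 100.1 and 93.2 in the control libraries, 166.7 and 169 in those of shControl, 162 and 154 in those of shMETTL3 and 46.0 and 79.0 in those of shMETTL14. It rose in senescence (0.80 ± 0.19, adjusted p = 0.002) and fell after METTL14 knockdown (-1.43 ± 0.20, adjusted p = 8.3e-06) to below the control cells (-0.63 ± 0.21, adjusted p = 0.018). That last call was lost without either control library or without shMETTL14 replicate 1 (-0.27). SMURF2, a ubiquitin ligase with 21489 counts over the 8 libraries, rose in senescence (0.65 ± 0.14, adjusted p = 6e-04) and fell after METTL14 knockdown (-0.83 ± 0.14, adjusted p = 6.2e-05). SKI, a corepressor related to SKIL, was lower in senescence (-0.72 ± 0.17, adjusted p = 0.0015), a call lost without control replicate 1 (-0.48) or senescent shControl replicate 1 (-0.55).

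After METTL3 knockdown SMURF1 and PMEPA1 rose, by 0.56 ± 0.13 and 0.94 ± 0.25 (SE) on the log2 scale (adjusted p = 0.003 and 0.0066), both calls lost without senescent shControl replicate 2 (0.50 and 0.75). PMEPA1, a membrane protein that sequesters SMADs, had 46.1 and 35.6 normalized counts with shControl and 74.9 and 81.7 with shMETTL3. BAMBI, a pseudoreceptor without kinase activity, had 9 and 7 raw counts in shControl cells, 14 and 13 in shMETTL3 cells and 26 and 19 in shMETTL14 cells. It was called higher after METTL14 knockdown (1.32 ± 0.47, adjusted p = 0.045), a call lost without any 1 of the control, shControl or shMETTL14 libraries (1.09 to 1.55).

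Among the target genes, TGFBI, a secreted matrix protein induced by TGF-beta, was transcribed at the highest level per length of any member in control cells, at 54.3 normalized counts per kb. It had 1983 and 1812 normalized counts in control cells, 2996 and 2896 in shControl cells, 3078 and 2283 in shMETTL3 cells and 1271 and 1570.1 in shMETTL14 cells. TGFBI rose in senescence (log2 fold change 0.63 ± 0.15 SE, adjusted p = 0.002; 0.058 without control replicate 2) and fell after METTL14 knockdown (-1.05 ± 0.15, adjusted p = 9.2e-06). ID1, a BMP-induced inhibitor of helix-loop-helix factors, had 13.3 and 8.71 normalized counts in control cells, 15.4 and 18.9 in shControl cells, 15.4 and 6.65 in shMETTL3 cells and 38.0 and 51.6 in shMETTL14 cells. It rose after METTL14 knockdown (1.37 ± 0.38, adjusted p = 0.011), a call lost without either shControl library or without shMETTL14 replicate 2 (1.14 to 1.53), and was higher with shMETTL14 than with shMETTL3 (2.03 ± 0.40, adjusted p = 0.00028). ID2 and ID3, with 5 to 28 raw counts per library, were called in none of the comparisons. ID4 was not tested, with 3 and 7 raw counts in control cells, 0 and 1 in shControl cells, 2 and 4 in shMETTL3 cells and 6 and 10 in shMETTL14 cells.

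By role, 4 of the 7 ligands tested were lower after METTL3 knockdown (11.2% of all genes) and 4 after METTL14 knockdown (12% of all genes). Of the 8 SMADs, 1 was higher after METTL3 knockdown (12.3% of all genes) and 1 lower after METTL14 knockdown. Leaving out each library in turn, 11 of the 21 calls in senescence, 7 of the 14 after METTL3 knockdown and 10 of the 16 after METTL14 knockdown held throughout. Those in senescence were INHBA, BMP2, BMP6, TGFBR3, GREM1, FST, SMAD3, SMAD6, SKIL, SMURF2 and TGIF1. Those after METTL3 knockdown were INHBA, BMP2, BMP6, TGFBR2, BMPR1A, FSTL1 and SMAD1. Those after METTL14 knockdown were INHBA, BMP2, BMP6, BMPR1B, GREM1, FSTL1, FSTL3, SKIL, SMURF2 and TGFBI. Without senescent shControl replicate 2 the calls among the members numbered 8 after METTL3 knockdown and 10 after METTL14 knockdown.

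**Figure D4:**
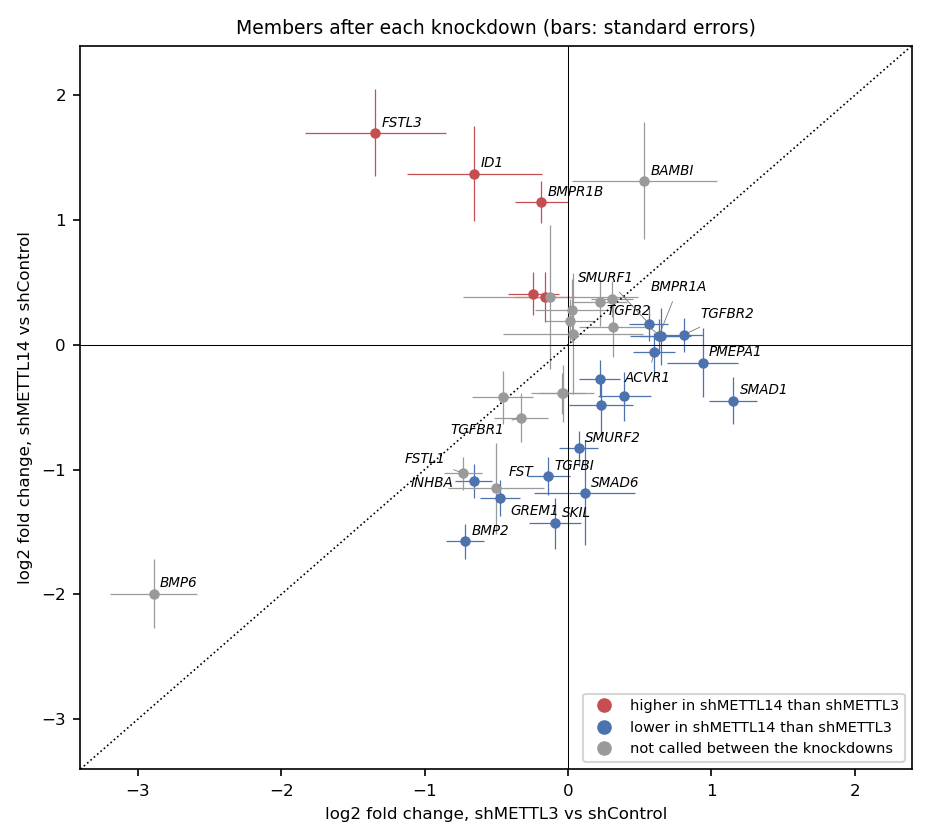
Each point is 1 of the 37 members with more than 3 counts in each senescent group, placed by its log2 fold change after METTL3 knockdown (horizontal axis) and after METTL14 knockdown (vertical axis), with standard errors as bars, the same change in both along the dotted line, and names for members called in either. Color gives the direct test of shMETTL14 against shMETTL3. Both axes share the shControl libraries. FSTL3, ID1, SMAD1, SKIL and BMPR1B lie farthest from the line, with called differences of 3.04, 2.03, -1.60, -1.34 and 1.33.

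The direct comparison of the knockdowns does not use the shControl libraries. Of the 22 members called, the 5 higher with shMETTL14 were FSTL3, ID1, BMPR1B, ENG and TGFBR3. TGFBR3 (0.54, adjusted p = 0.034) lost its call in 8 of 20 alternatives, among them shMETTL3 replicate 1 or either shMETTL14 library left out (adjusted p = 0.083 to 0.16). The 17 lower included SMAD1, SKIL (-1.34 ± 0.20 SE, adjusted p = 9.7e-06), SMAD6 (-1.30 ± 0.40, adjusted p = 0.013, lost without shMETTL3 replicate 1 or either shMETTL14 library), PMEPA1 (-1.08 ± 0.25, adjusted p = 0.0012), TGFBI (-0.92 ± 0.15, adjusted p = 3.1e-05) and SMURF2 (-0.91 ± 0.14, adjusted p = 1e-05). TGFBR2, ACVR1, BMPR1A and GREM1 were also lower, by 0.56 to 0.76 on the log2 scale (adjusted p = 0.00011 to 0.0016), but ACVR1 (-0.35) and BMPR1A (-0.22) were not called with an offset for gene length. In 11 of the 22 the call held in every alternative tried, and without shMETTL14 replicate 1 the calls numbered 14. The median of all genes tested was 0.01 here, and -0.25 when libraries were scaled by total count alone.

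Against control cells, 14 members were higher and 11 lower in senescent shMETTL3 cells (background 20.1% and 20.1%), and 10 were higher and 16 lower in senescent shMETTL14 cells (19.7% and 20.5%). INHBA stayed 10.4-fold above control with shMETTL3 and 7.69-fold with shMETTL14, and BMP6 5.27-fold and 9.82-fold. The BMP6 values rest on 7 counts in the control libraries: without control replicate 1 or 2 its log2 fold change was 1.65 or 4.05 with shMETTL3 and 2.55 or 4.96 with shMETTL14. SMAD3, TGFBR3, FST and SMAD6 stayed below control in both, with log2 fold changes of -1.20, -1.64, -1.94 and -1.54 with shMETTL3 and -1.14, -1.10, -2.59 and -2.84 with shMETTL14 (largest adjusted p = 1e-04). GDF5 was at least 5.18-fold lower with shMETTL3 than in control cells. SMAD1 and PMEPA1 were above control with shMETTL3 (1.33 ± 0.16 and 1.23 ± 0.24 SE, adjusted p = 2.1e-07 and 0.00021), and were not called with shMETTL14. FSTL3 was below control with shMETTL3 (-1.56 ± 0.46, adjusted p = 0.0077, lost at -1.01 without shMETTL3 replicate 2 and at -1.04 with an offset for GC content) and above it with shMETTL14 (1.48 ± 0.32, adjusted p = 0.00053).

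**Figure D5:**
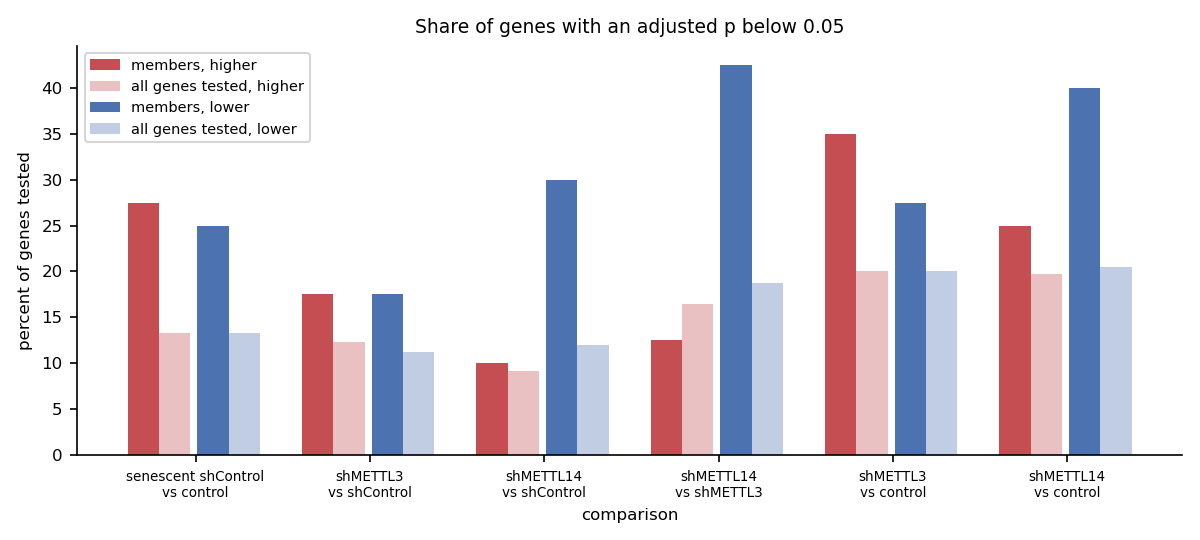
Dark bars give the percent of the 40 members tested, and pale bars the percent of all 12844 genes tested, that were called higher (red) or lower (blue) in each of the 6 comparisons. The members' share lower was 30% after METTL14 knockdown and 42.5% between the knockdowns, where the shares of all genes were 12% and 18.7%.

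Other genes of the pathway were called in both directions. Of 63 further pathway genes, which take in ligands, receptors, latency proteins, antagonists, kinases, ubiquitin ligases and coactivators, 37 were tested, and 12 were higher and 9 lower in senescence, 5 higher and 9 lower after METTL3 knockdown, and 6 higher and 10 lower after METTL14 knockdown. The shares of all genes were 13.3% and 13.3%, 12.3% and 11.2%, and 9.15% and 12%. GDF15, a stress-induced ligand, rose in senescence from 27.5 and 41.8 to 572 and 512 normalized counts (log2 fold change 3.96 ± 0.21 SE, adjusted p = 3.4e-14). LTBP4, which holds latent TGF-beta in the matrix, fell from 205 and 166 to 44.9 and 69.0 in senescence (-1.70 ± 0.21, adjusted p = 5.4e-07) and further to 10.3 and 6.65 with shMETTL3 (-2.75 ± 0.35, adjusted p = 1.7e-06). NRROS, which tethers latent TGF-beta on cells, had 6 and 2 raw counts in control cells, 18 and 10 in shControl cells and 7 and 2 in shMETTL3 cells, called higher in senescence and lower after METTL3 knockdown (adjusted p = 0.016 and 0.042). LRRC32, a second tether of latent TGF-beta, and ACVRL1, a type I receptor, fell after METTL14 knockdown, from 30 and 20 to 9 and 5 raw counts and from 96 and 87 to 25 and 28, with log2 fold changes of -1.98 and -1.94 (adjusted p = 0.0031 and 3.5e-06).

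Of 26 genes known to be induced by TGF-beta in fibroblasts, 25 were tested. In senescence 7 were higher and 11 lower (28% and 44%, against 13.3% and 13.3% of all genes). After METTL3 knockdown 8 were higher and 4 lower (32% and 16%, against 12.3% and 11.2%). After METTL14 knockdown 6 were higher and 11 lower (24% and 44%, against 9.15% and 12%). LTBP2 is also counted among the further pathway genes above. Their median log2 fold changes were -0.19, 0.07 and -0.56, and those of all genes -0.03, -0.03 and 0.00. COL3A1, a fibrillar collagen, fell from 2721 and 2688 normalized counts in control cells to 597 and 891 with shControl and on to 178 and 316 with shMETTL14 (log2 fold changes -1.86 ± 0.20 and -1.60 ± 0.21 SE, adjusted p = 2.7e-08 and 2.3e-06). CDKN2B, the cell cycle inhibitor p15, and SPHK1, sphingosine kinase, rose in senescence, from 36 and 38 to 141 and 141 raw counts and from 9 and 12 to 24 and 35, with log2 fold changes of 2.31 ± 0.22 and 1.86 ± 0.37 (adjusted p = 2.9e-09 and 0.00031). After METTL3 knockdown IGFBP3 fell from 92 and 76 to 19 and 17 raw counts and the actin-binding TAGLN from 79 and 140 to 31 and 30, with log2 fold changes of -2.43 and -2.05 (adjusted p = 2.1e-07 and 7.2e-07), and the NADPH oxidase NOX4 rose from 34.3 and 23.4 to 103 and 131 normalized counts (2.02 ± 0.29, adjusted p = 8e-06). After METTL14 knockdown the collagen receptor ITGA11 fell from 179.7 and 149 to 30.0 and 56.9 and the matrix protein LTBP2 from 515 and 521 to 96.0 and 182 (-1.92 ± 0.25 and -1.90 ± 0.20, adjusted p = 2.6e-06 and 9.9e-08). COL1A1, COL1A2 and COL3A1 of this list are also among the 10 fibroblast markers, whose summed level was lower in both shMETTL14 libraries than in any other library. The part of that summed level in these changes was not tested. Of the markers, raw counts over the libraries were 1763 to 9746 for COL1A1, 700 to 7541 for COL1A2 and 21 to 855 for DCN, but 3356 to 4417 for VIM.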

How the data were processed

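The data are 8 fastGRO-seq libraries of nascent RNA, 2 for each of 4 groups. The authors aligned the reads to hg19 (STAR and deepTools 3.3 are named in the submitters' processing notes) and deposited raw counts per gene, made with HOMER over whole genes with replicates kept apart and no normalization, beside the length of each gene. Per the file headers the counting asked for 1 strand, but the counts appeared not to separate strands. No row lacked a gene name, and no column was left unused.

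Counts were tested with edgeR 4.0.16 in R 4.3.3: TMM normalization, filterByExpr with a minimum count of 10, 1 quasi-likelihood fit of the 4 groups over all genes tested, and Benjamini-Hochberg adjustment called below 0.05. The common biological variation came to 10.6%. The fit was tested on simulated data. With 2 libraries a group, no permutation test of 1 gene could pass the threshold. Intervals and floors cover counting error only.

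The members and lists were chosen with earlier results of these data known. Values in each library are given for members called with a log2 change of 1 or more in size, and for the 3 largest calls of each further list in each of the 3 comparisons. An item that this rule names is not reported here. Alternatives were DESeq2 1.42.0, other scalings and filters, a replicate block, each library left out in turn, and, added after seeing the data, offsets for gene length and GC content (known for 99.7% of genes tested) and protein-coding genes alone. No spike-in scaling was applied.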

Additional observations from a re-analysis of the deposited data

Results flagged for a closer look

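FSTL3, the activin inhibitor, was called lower after METTL3 knockdown and higher after METTL14 knockdown, and the direct test of the difference between the knockdowns gave a log2 value of 3.04 ± 0.40 (SE, adjusted p = 1.3e-06), with both shMETTL14 libraries above both shMETTL3 libraries. Leaving out each library in turn gave 2.50 to 3.90. The call after METTL3 knockdown alone (adjusted p = 0.047) was lost in 13 of 19 alternatives, and its log2 fold change ranged over them from -2.20 without shMETTL3 replicate 1 to -0.74 by total count alone.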

How the results depend on the processing

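Of 124 calls of a member in 1 of the 6 comparisons, 68 held in every alternative. Asking for a log2 change of 1 or more in size left 11 members in senescence, 4 after METTL3 knockdown, 7 between the knockdowns, and 15 and 15 for shMETTL3 and shMETTL14 against control. DESeq2 called 9 after METTL3 and 10 after METTL14 knockdown. Leaving out members that share 5% of their span gave 9 after METTL3 knockdown, and 10 counts in every library or an adjusted p below 0.01 gave 10 and 10 after METTL14 knockdown. Leaving out 1 library at a time gave 14 to 22 calls in senescence, 8 to 16 after METTL3 knockdown, 10 to 20 after METTL14 knockdown, 14 to 23 between the knockdowns, 23 to 26 for shMETTL3 and 18 to 29 for shMETTL14 against control; the lone library of a group was then taken to vary like the others. Total count alone, which holds mostly ribosomal RNA, moved the median of all genes to -0.53, 0.58, 0.35 and -0.25 in the first 4 comparisons. Members higher and lower were then 4 and 17, 19 and 2, 11 and 9, and 3 and 20, and 2 estimates changed sign with their calls lost, TGFBR2 in senescence (-0.0495, adjusted p = 0.83) and GREM1 after METTL3 knockdown (0.15, adjusted p = 0.5). The cause of these shifts was not tested. Replicate numbers did not pair the libraries (correlations of deviations -0.0389 to 0.101). Library sizes without ribosomal RNA rows gave 6 higher and 10 lower after METTL14 knockdown, 6 and 12 between the knockdowns and 11 and 13 for shMETTL3 against control. With a replicate block the counts were 21, 13, 16, 23, 26 and 26. The libraries held 1513930 to 2048475 counts outside ribosomal RNA. BMP4, GDF5, SMAD9 and the ID genes had few counts at this depth, and the effect of depth on their calls was not tested.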
